A study of Mus musculus with 12 samples.

Results

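Semaphorins and their plexin receptors were examined in endothelial cells of the neonatal mouse lung. The 10 members are 6 semaphorin genes (Sema3c, Sema3f, Sema4c, Sema6a, Sema6d and Sema7a) and 4 plexin genes (Plxnd1, Plxna2, Plxnb1 and Plxnb2). They were taken by gene symbol from the 24394 genes listed in all 12 libraries, and all 10 were found and tested. The mice were C57BL/6J, the lung endothelial cells were isolated by FACS at postnatal day 5, and there were 3 groups of 4 libraries. The WT group was wild type, and its Cre and inducer status is not given in the sources used here. L12-ECKO mice carried VE-cadherin-CreERT2, an inducible Cre driven by an endothelial promoter, with floxed alleles of both Lats1 and Lats2, the kinases of the Hippo pathway. L12YT-ECKO mice carried the same driver and alleles together with floxed Yap and TAZ, the transcriptional co-activators that these kinases restrain. The labels do not say whether each library came from a separate animal, so p-values measure only the spread between these libraries, which may be technical.

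Semaphorins are guidance cues that steer growing axons and blood vessels, mostly by repelling the cells that sense them. Some are secreted, some span the membrane and Sema7a is held by a lipid anchor. Plexins are their transmembrane receptors, and they act on small GTPases to change adhesion and the actin cytoskeleton. Secreted semaphorins mostly bind neuropilins, which pair with an A-type plexin or with Plxnd1, the plexin best known from endothelial cells. Membrane-bound semaphorins bind plexins directly: Sema4c is a ligand of Plxnb2, and Sema6a and Sema6d bind A-type plexins.

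The stretch of 250 bases before the start site is shown for 2 members, because it marks the contrast between a member with a match to the core motif of TEAD factors, through which YAP and TAZ reach DNA, and a member without. Sequences are from RefSeq, build GRCm38.p6, which is the assembly of mm10. They are written 5′ to 3′ on the strand of the gene, and capitals mark the match, here the reverse complement of the motif. The Plxnd1 window is chr6:115995006-115995255 on the minus strand and the Sema6d window is chr2:124089719-124089968 on the plus strand, and neither touches an annotated exon.
Plxnd1: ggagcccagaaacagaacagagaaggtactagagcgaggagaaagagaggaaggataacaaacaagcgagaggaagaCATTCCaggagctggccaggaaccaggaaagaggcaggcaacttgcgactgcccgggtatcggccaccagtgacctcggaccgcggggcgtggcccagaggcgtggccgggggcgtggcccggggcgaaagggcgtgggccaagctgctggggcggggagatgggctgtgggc
Sema6d: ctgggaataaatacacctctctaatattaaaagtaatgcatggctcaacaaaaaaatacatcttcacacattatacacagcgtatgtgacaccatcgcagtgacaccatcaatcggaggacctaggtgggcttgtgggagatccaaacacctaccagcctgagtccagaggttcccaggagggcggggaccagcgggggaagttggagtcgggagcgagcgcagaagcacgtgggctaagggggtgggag

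The windows were searched for GGAATG, a core of the TEAD motif, and for TGANTCA, the AP-1 motif, on both strands. The 2 motifs can overlap in their letters, but no window of a member held both. RefSeq gave 11 windows for 8 of the members. GGAATG was found in 2 of the 11, those of Plxnd1 and Plxnb1, 173 and 148 bases before the start. All windows of the table held it in 12.6% of 32851 cases. TGANTCA was found in 1 of the 11, a window of Sema4c, against 6.75% of all windows. The windows of Sema3c and Plxna2, the members whose transcripts changed (below), held neither motif. These windows are not printed because they overlap annotated exons. They begin inside the annotated genes, at 17574566 for Sema3c (gene start 17574281) and at 194619579 for Plxna2 (gene start 194618218). The bases before those gene starts were therefore not searched.

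Values are on the deposited log2 scale, where 1 unit is a doubling. The libraries hold 3-prime tags of transcripts, and their depth is unknown. Libraries had 9850 to 13078 genes above 0, the fewest being in L12-ECKO replicate 3, where low values are least certain. Wwtr1, which encodes TAZ, lay at 8.16 to 9.37 in L12YT-ECKO, below the 10.11 to 12.01 of the other libraries, and Yap1 at 6.69 to 8.20, below 9.35 to 10.45. Lats2 lay at 9.71 to 10.33 in L12-ECKO, above all WT libraries (8.42 to 9.34), and at 8.63 to 9.57 in L12YT-ECKO. Lats1 lay at 5.32 to 7.45 in WT and reached 7.40 in L12-ECKO and 7.90 in L12YT-ECKO, with at least 1 library at 0 in both knockout groups. Neither level shows the deletion of its gene, and since 3-prime tags may fall outside the deleted part, neither checks the labels. L12-ECKO replicates 2 to 4 and replicates 3 and 4 of L12YT-ECKO, 5 libraries in all, share a block of displaced rows, none of them a row of a member, and are treated as a batch beside the other 7. The 5 also hold more liver transcripts: 12 liver markers averaged 3.86 to 6.90 in them, against 0.997 to 2.67 in the 7. In every library all 10 endothelial markers were above 0, with averages of 13.06 to 13.58. Of these markers only Cldn5 was called in any comparison, higher by 1.14 in L12YT-ECKO versus L12-ECKO (limma adjusted p = 0.0401). Averages were 4.56 to 7.53 for 10 epithelial markers, 3.54 to 6.54 for 10 mesenchymal markers and 1.45 to 3.61 for 10 immune markers in 11 libraries. L12-ECKO replicate 1 stood apart with an immune average of 7.42. The 7 red cell and platelet markers found averaged 6.98 to 9.74 per library. Among these, Hba-a1 lay at 12.7 to 16.0 and Hbb-bs at 11.6 to 14.8 over the 12 libraries. Sex, read from Xist and Ddx3y, was unbalanced: 3 of 4 L12-ECKO libraries were female, the same 3 that have displaced rows, against 1 of 4 in each other group. Within L12-ECKO, sex and displacement therefore cannot be told apart. The 6 lymphatic markers averaged 3.48 to 5.58 per library. Of these, Prox1 was listed at 0 in all 12 libraries, while Reln, Ccl21a and Pdpn were above 0 in 1, 6 and 11. Lyve1 lay at 10.23 to 12.61 and Flt4 at 7.17 to 9.40 over the 12 libraries.

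All 10 members were above 0 in all 12 libraries. Loss of the kinases was first compared with wild type. In L12-ECKO 2 of the 10 members passed the test, the secreted ligand Sema3c, which fell, and the receptor Plxna2, which rose. Limma called 0.481% of the 11634 genes tested in this comparison at an adjusted p under 0.05, 0.189% lower and 0.292% higher. Members were chosen with earlier results of these data known, so the difference between their share and that background is not evidence about the family. At an unadjusted p under 0.05 there were 4 of 10 members, against 12.2% of all genes. The members went both ways, 5 higher and 5 lower, with a median log2 difference of -0.032 against -0.022 over all genes tested. Their median size without regard to sign was 0.74, against 0.68 over all genes. In L12YT-ECKO versus WT 0 of 10 members were called (2 at an unadjusted p under 0.05), where limma called 0.0086% of all genes and 6.24% lay at an unadjusted p under 0.05. In L12YT-ECKO versus L12-ECKO 0 of 10 were called (5 at an unadjusted p under 0.05), where limma called 0.0688% (0.0086% higher, 0.0602% lower) and 6.08% lay at an unadjusted p under 0.05. Both comparisons with WT share the WT libraries, and the third shares its libraries with each of them, so the 3 sets of values are not independent.

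**Figure D1:**
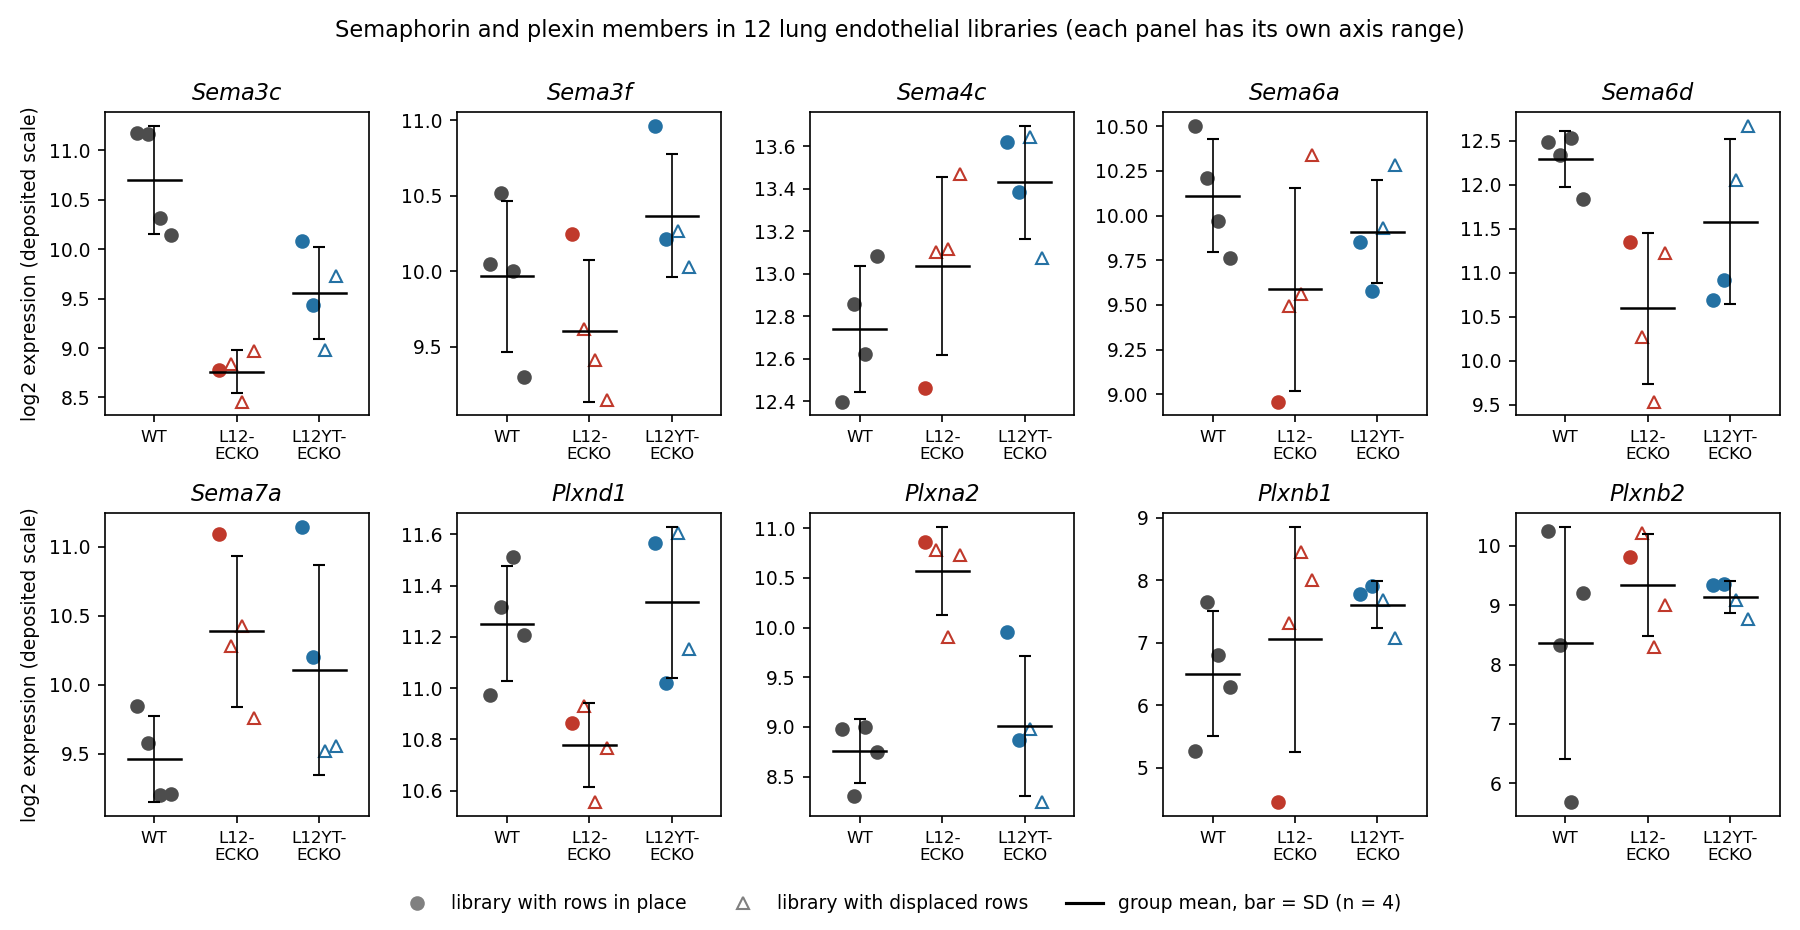
Log2 expression on the deposited scale (vertical axes, a separate range in each panel) of the 10 members in WT, L12-ECKO and L12YT-ECKO. Points are libraries, filled circles for rows in place and open triangles for displaced rows, lines are group means and bars are SD with n = 4. Sema3c falls to 8.46 to 8.97 in L12-ECKO and Plxna2 rises to 9.91 to 10.86, in both cases with no overlap with WT.

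Sema3c (ENSMUSG00000028780.13, chromosome 5, 17574281 to 17730268 on mm10, protein coding) encodes a secreted semaphorin that signals through neuropilins, and in the lung it is known as a marker of general capillary endothelium. Its log2 values in WT replicates 1 to 4 were 11.18, 11.16, 10.31 and 10.14. In L12-ECKO they were 8.78, 8.84, 8.46 and 8.97. In L12YT-ECKO they were 10.09, 9.44, 8.98 and 9.73. The 3 groups did not overlap, with WT highest, L12-ECKO lowest and L12YT-ECKO between them, although the gap between the lowest L12YT-ECKO and the highest L12-ECKO library was only 0.005 and that between L12YT-ECKO and WT 0.055. Sema3c fell by 1.94 in L12-ECKO versus WT (SE 0.36, 95% interval -2.68 to -1.19, limma adjusted p = 0.0196), which is 3.83-fold lower. The L12YT-ECKO mean lay between the other groups without a call against either. The log2 difference was -1.14 from WT (interval -1.89 to -0.39, limma adjusted p = 0.633) and 0.80 from L12-ECKO (interval 0.049 to 1.54, limma adjusted p = 0.791).

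In L12-ECKO, the library with rows in place (replicate 1, 8.78) lay inside the range of the 3 with displaced rows. Within the batch of 7 libraries the Sema3c difference was -1.92, and with the batch as a covariate -1.76, neither called (limma adjusted p = 0.266 and 0.216). The batch of 7 holds 1 L12-ECKO library, which the fit assumes to vary like the other groups, here and for every gene below. It was not called without WT replicate 1 (difference -1.78, limma adjusted p = 0.0772) or WT replicate 2 (-1.78, 0.0871). It was also not called with sex as a covariate (-1.68, limma adjusted p = 0.0967), or with a variance prior neither trended nor robust (0.115). In bulk samples fewer cells of a type and less RNA per cell cannot be told apart. The 8 other general capillary markers had library averages of 10.43 to 11.24 (WT), 10.30 to 10.66 (L12-ECKO) and 10.31 to 11.29 (L12YT-ECKO). These averages depend in part on the detection of Glp1r, which was above 0 in 5 libraries, at up to 6.37, and was not tested. Of the 7 markers that were tested, 6 were lower and 1 higher in L12-ECKO than in WT. Cd93 was called, with a fall of 0.75 (limma adjusted p = 0.0481), and its L12YT-ECKO mean differed from that of WT by 0.0025. For the 8 aerocyte markers they were 9.65 to 10.23, 9.13 to 10.34 and 10.07 to 10.63 in the same order. These averages join members that went opposite ways in L12-ECKO versus WT, with 6 lower and 2 higher. Apln rose by 2.61 (limma adjusted p = 0.000378), while Prx, Tbx2, Ednrb and Fibin had differences of -1.18, -0.998, -0.98 and -0.87, none called. The part of these cell types in the Sema3c result was not tested.

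Sema3f (chromosome 9, 107681500 to 107710475), a secreted semaphorin that binds Nrp2, showed no called difference. Its values were 9.30 to 10.52 in WT, 9.14 to 10.25 in L12-ECKO and 10.03 to 10.96 in L12YT-ECKO, and all 3 ranges overlapped. The log2 difference of L12-ECKO from WT was -0.36 (interval -1.10 to 0.38), so a change of the size seen for Sema3c lies outside the interval. With the batch covariate it was 0.10, on the other side of 0. The difference of L12YT-ECKO from L12-ECKO was 0.76 (interval 0.026 to 1.5, limma adjusted p = 0.811).

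Plxnd1, a receptor for secreted semaphorins, was not called. The gene lies on chromosome 6, 115954811 to 115995005. It had values of 10.97, 11.32, 11.51 and 11.21 in WT. The L12-ECKO libraries held 10.86, 10.93, 10.55 and 10.77. The L12YT-ECKO libraries held 11.57, 11.02, 11.61 and 11.15. All 4 L12-ECKO libraries lay below all 8 others, by 0.041 from WT and by 0.088 from L12YT-ECKO. The differences were small: -0.47 from WT (SE 0.25, interval -1.0 to 0.054, limma adjusted p = 0.453) and 0.56 in L12YT-ECKO versus L12-ECKO (interval 0.029 to 1.08, limma adjusted p = 0.803). Across the members, groups did not overlap for 4 of 10 in L12-ECKO versus WT (Sema3c, Sema6d, Plxnd1 and Plxna2), against 6.33% of all genes tested. The counts were 1 of 10 (Sema3c) in L12YT-ECKO versus WT, against 4.7%, and 2 of 10 (Sema3c and Plxnd1) in L12YT-ECKO versus L12-ECKO, against 4.38%.

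Both neuropilins, the ligand-binding partners of these plexins and co-receptors for VEGF, were present throughout. Nrp1 lay between 11.34 and 12.28 in the 12 libraries, and its log2 difference of L12-ECKO from WT was -0.18 (limma adjusted p = 0.797). For Nrp2, WT averaged 9.90 ± 0.52, L12-ECKO 10.83 ± 0.30 and L12YT-ECKO 9.97 ± 0.43 (SD, n = 4 each). It was higher in L12-ECKO by 0.92 (SE 0.33) without passing (limma adjusted p = 0.256). The highest WT library, at 10.63, exceeded the lowest L12-ECKO library, at 10.54.

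Plxna2 (ENSMUSG00000026640.12, chromosome 1, 194618218 to 194816869, protein coding) encodes an A-type plexin, a receptor for Sema6a and, with neuropilins, for secreted semaphorins. Its log2 values in WT replicates 1 to 4 were 8.98, 8.31, 9.0 and 8.75. In L12-ECKO they were 10.86, 10.78, 9.91 and 10.73, all above WT, with replicate 3 well below the other libraries of its group. In L12YT-ECKO they were 9.95, 8.87, 8.98 and 8.24, so 3 of 4 lay within 8.24 to 8.98 and replicate 1 just above the lowest L12-ECKO library. Plxna2 rose by 1.81 in L12-ECKO versus WT (SE 0.39, interval 0.99 to 2.63, limma adjusted p = 0.0481), which is 3.51-fold higher. L12YT-ECKO differed from WT by 0.25 (interval -0.57 to 1.07, limma adjusted p = 0.937). It differed from L12-ECKO by -1.56 (SE 0.39, interval -2.38 to -0.74), with an unadjusted p of 0.000792 but a limma adjusted p of 0.242 over all genes.

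The call of Plxna2 in L12-ECKO versus WT lies close to the threshold. It was lost without WT replicates 1, 2 and 4 (limma adjusted p = 0.0860, 0.160 and 0.0945), L12-ECKO replicates 1, 2 and 4 (0.126, 0.118 and 0.0982) and L12YT-ECKO replicates 2 and 3 (0.0678 and 0.0664). The size moved little, from 1.66 to 2.03. It was 2.10 within the batch of 7 libraries and 2.28 with the batch covariate (limma adjusted p = 0.294 and 0.0783). The call was also lost with the sex covariate (limma adjusted p = 0.117) and with no filter on low values (0.131). The same held with a prior neither trended nor robust (limma adjusted p = 0.156), with log2(value + 1) (0.0664) and with only the 2 groups compared (0.0506). The L12-ECKO library with rows in place, replicate 1, had the highest Plxna2 value of its group. It is also the library with the immune average of 7.42, whose part in the Plxna2 value was not tested; without it the difference was 1.72. The annotation has 4 genes of uncertain status that overlap Plxna2 on the same strand, none of them over its last base. Overlap with the stretch before that base was not checked.

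**Figure D2:**
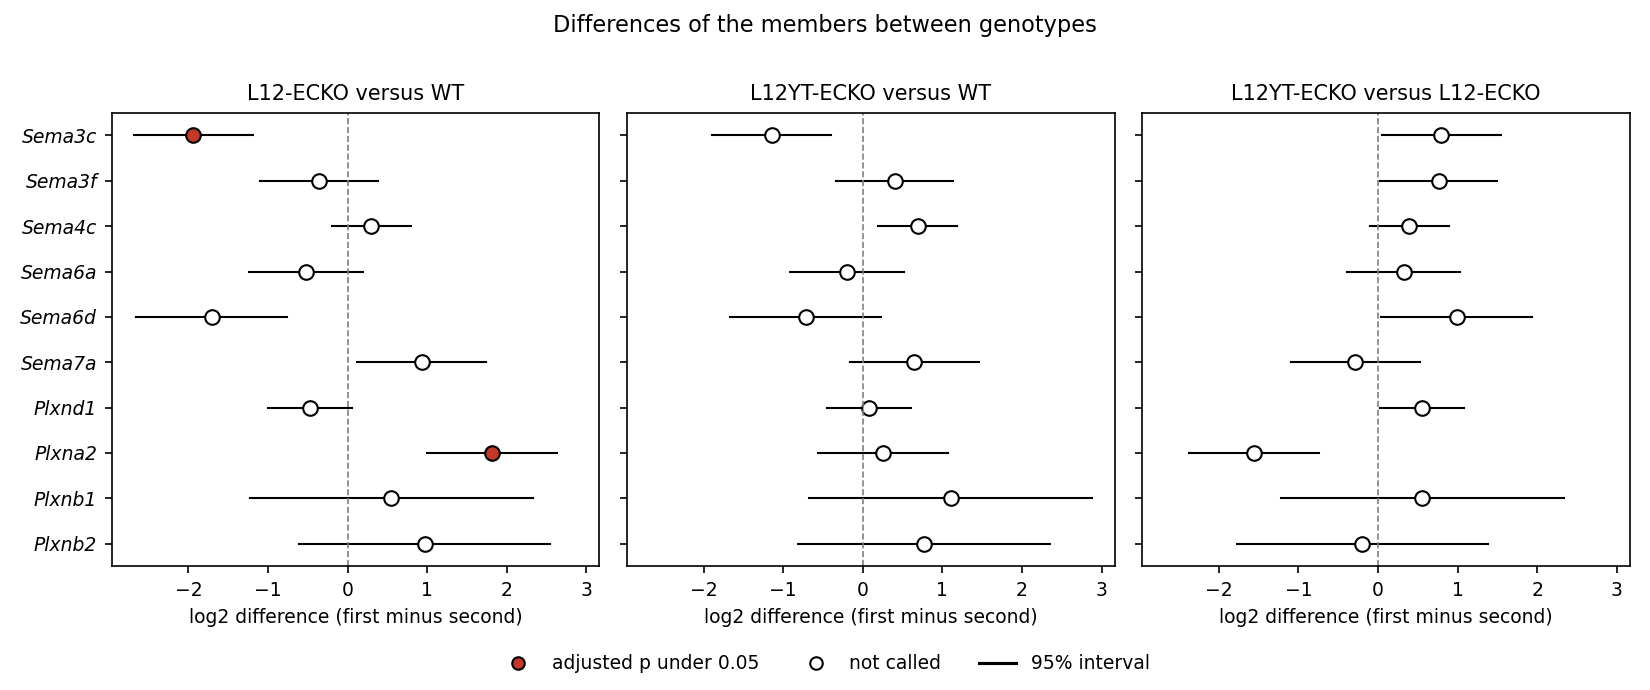
Log2 differences of the 10 members (horizontal axes, first group minus second) in the 3 comparisons, with 95% intervals from limma. Filled points have an adjusted p under 0.05: Sema3c at -1.94 and Plxna2 at 1.81, both in L12-ECKO versus WT.

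The membrane-spanning ligands of A-type plexins were Sema6a and Sema6d. Sema6a (chromosome 18, 47235598 to 47368870) lay at 9.76 to 10.50 in WT, 8.96 to 10.34 in L12-ECKO and 9.58 to 10.28 in L12YT-ECKO. The groups overlapped, and the difference of L12-ECKO from WT was -0.52 (interval -1.24 to 0.19, limma adjusted p = 0.540). Within the batch of 7 it was -1.15, from 1 L12-ECKO library.

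Sema6d (chromosome 2, 124089969 to 124667770) had the second largest decrease of the members in L12-ECKO versus WT but did not pass. Its values were 12.49, 12.34, 12.53 and 11.84 in WT, a narrow range. In L12-ECKO they were 11.35, 10.27, 9.54 and 11.22, all below WT. The difference was -1.70 (SE 0.45, interval -2.65 to -0.76), with an unadjusted p of 0.00154 and a limma adjusted p of 0.126. Within the batch of 7 it was smaller, -0.94, with 1 L12-ECKO library there. With the batch covariate it was larger, -2.05 (limma adjusted p = 0.305). In L12YT-ECKO the values were 10.69 and 10.92 in replicates 1 and 2, whose rows are in place, and 12.06 and 12.67 in replicates 3 and 4, whose rows are displaced. The L12YT-ECKO libraries in place thus lay below all WT libraries, and those displaced lay at the WT level. The difference of L12YT-ECKO from L12-ECKO was 0.99 over all libraries (limma adjusted p = 0.811). It was 2.03 within the batch of 5 and -0.55 within the batch of 7, which holds 1 L12-ECKO library. Its sign thus differed between the batches. The difference of L12YT-ECKO from WT was -0.72 over all libraries and -1.5 within the batch of 7 (limma adjusted p = 0.828 and 0.21). What sets the displaced libraries apart was not tested for Sema6d.

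Sema4c, a membrane-spanning semaphorin, and its receptor Plxnb2 were not called. Sema4c (chromosome 1, 36548639 to 36558349) lay at 12.40 to 13.08 in WT, 12.47 to 13.47 in L12-ECKO and 13.07 to 13.65 in L12YT-ECKO. The L12YT-ECKO mean exceeded that of WT by 0.69 (SE 0.24, interval 0.19 to 1.19), with an unadjusted p of 0.0091 and a limma adjusted p of 0.704. The groups overlapped by 0.010, as 3 of the 4 L12YT-ECKO libraries lay above every WT library. The difference of L12-ECKO from WT was 0.30 (interval -0.20 to 0.79).

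The B-type plexins were the least precise members. Plxnb2 (chromosome 15, 89155549 to 89180788) ranged in WT from 5.68 in replicate 3 to 10.24 in replicate 1. L12-ECKO libraries lay at 8.30 to 10.22 and L12YT-ECKO libraries at 8.77 to 9.35. The difference of L12-ECKO from WT was 0.97 (SE 0.74, interval -0.61 to 2.55). Without WT replicate 3 it was 0.074, and that of L12YT-ECKO from WT changed from 0.77 to -0.12. Plxnb1 (chromosome 9, 109095389 to 109119917), a receptor for Sema4d, had the lowest value of any member, 4.45 in L12-ECKO replicate 1, while the other L12-ECKO libraries lay at 7.32 to 8.45. Its values were 5.26 to 7.65 in WT and 7.07 to 7.91 in L12YT-ECKO. The intervals of its 3 differences all span 0 and are wide, for example -1.23 to 2.33 in L12-ECKO versus WT. An antisense gene overlaps Plxnb1 but not its last base, and overlap with the stretch before that base was not checked. Whether the authors counted by strand is not given in the sources used here.

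Sema7a (chromosome 9, 57940112 to 57962865), the lipid-anchored semaphorin, signals through Plxnc1 and beta-1 integrin. Its values were 9.85, 9.58, 9.20 and 9.21 in WT. In L12-ECKO they were 11.09, 10.28, 10.43 and 9.76. In L12YT-ECKO they were 11.15, 10.20, 9.52 and 9.55. In both knockout groups the highest library was replicate 1, whose rows are in place. The L12-ECKO one has the high immune average, and without it the difference of L12-ECKO from WT was 0.70; the part of immune cells was not tested. The difference of L12-ECKO from WT was 0.93 (SE 0.39, interval 0.12 to 1.74, limma adjusted p = 0.341), and with the batch covariate 1.72 (limma adjusted p = 0.137). That of L12YT-ECKO from WT was 0.65 (interval -0.17 to 1.46), and with the batch covariate 1.17 (limma adjusted p = 0.619). Its receptor Plxnc1 had means of 7.94 ± 0.74 (WT), 6.56 ± 1.33 (L12-ECKO) and 7.31 ± 0.51 (L12YT-ECKO), each the SD with n = 4. Itgb1, the integrin subunit, had means of 13.19 ± 0.14, 12.82 ± 0.48 and 12.90 ± 0.30. Neither was called in any comparison.

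**Figure D3:**
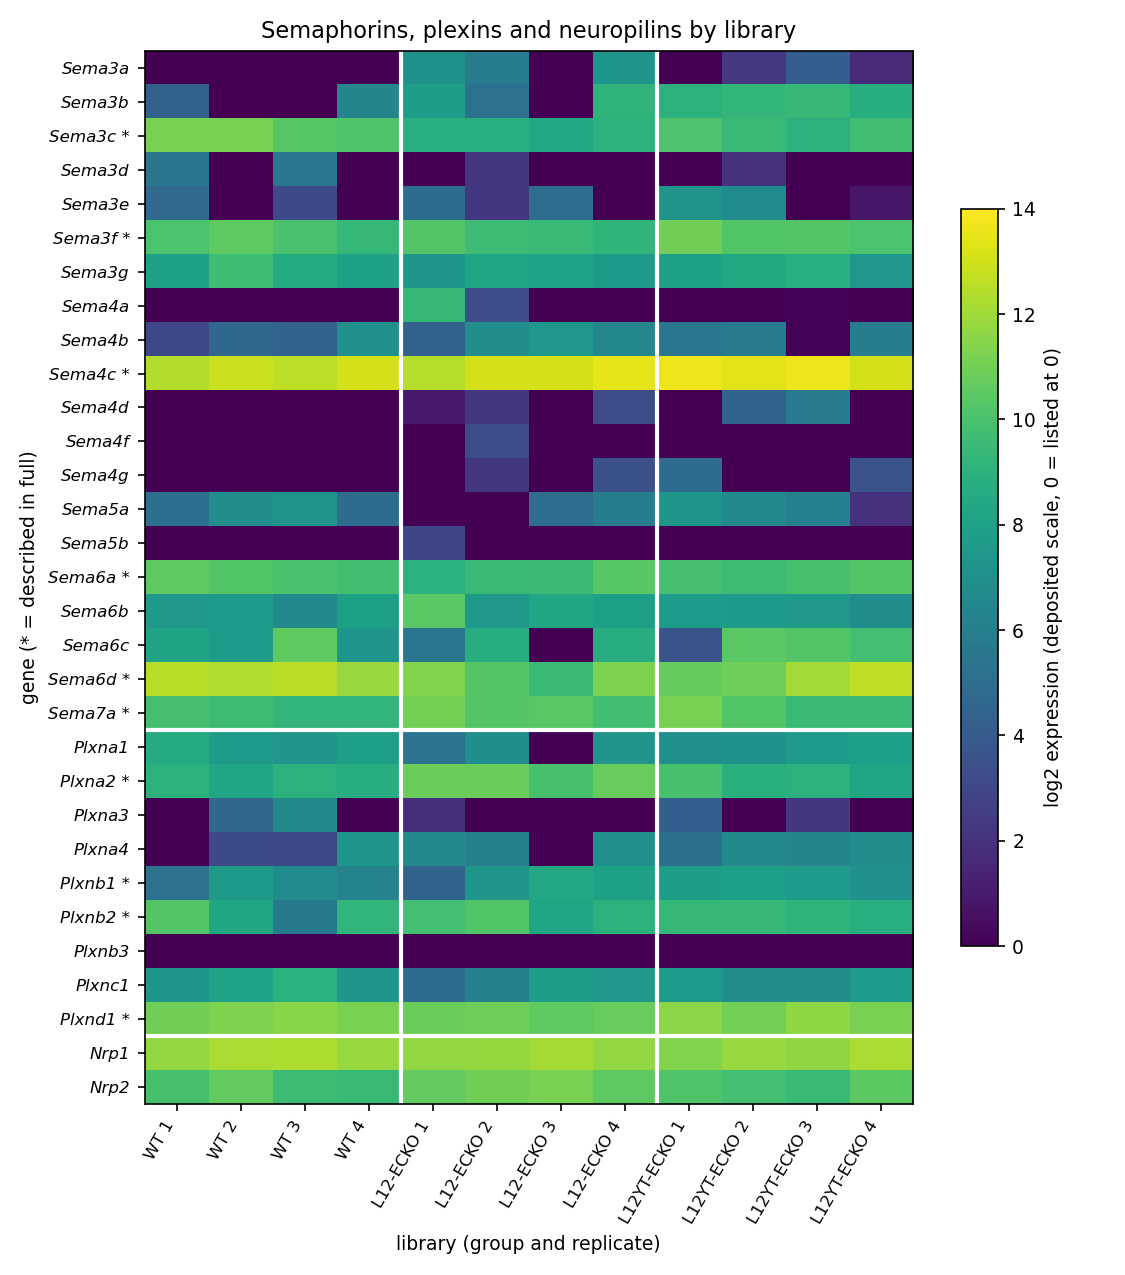
Log2 expression on the deposited scale (colour, 0 where a gene is listed at 0) of 20 semaphorins, 9 plexins and 2 neuropilins (rows) in the 12 libraries (columns). The rows marked with an asterisk are the members, which have a value above 0 in every column; Plxnb3 is at 0 in every column.

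The rest of the family was mostly low or scattered. Of the 20 semaphorin genes listed, 9 were above 0 in all 12 libraries and 14 were tested, and of 9 plexin genes 5 were above 0 throughout and 7 were tested. Beyond the members, 8 semaphorins (Sema3a, Sema3b, Sema3e, Sema3g, Sema4b, Sema5a, Sema6b and Sema6c) and 3 plexins (Plxna1, Plxna4 and Plxnc1) were tested, and limma called 0 of these 11 in any comparison. At an unadjusted p under 0.05 there were 1 of 8 and 1 of 3 in L12-ECKO versus WT, 1 and 0 in L12YT-ECKO versus WT, and 0 and 1 in L12YT-ECKO versus L12-ECKO. Sema3g, an arterial semaphorin, lay at 7.41 to 9.65 and Sema6b at 6.66 to 10.43 over the 12 libraries.

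For low genes detection depends on the library, and no difference in detection was tested. The lowest value above 0 was 3.01 to 3.16 in WT libraries but 0.067 to 4.98 in L12-ECKO and 0.131 to 2.77 in L12YT-ECKO, so a WT library could not show a value under about 3. Sema3a, the prototype repellent, was listed at 0 in all 4 WT libraries. The L12-ECKO libraries had values of 7.21, 5.91, 0 and 7.36, and those of L12YT-ECKO 0, 2.34, 4.18 and 1.72, of which 2.34 and 1.72 lie under the lowest WT value. Its limma adjusted p in L12-ECKO versus WT was 0.240. For Sema3b, the WT libraries had 4.33, 0, 0 and 6.36 and the L12-ECKO libraries 7.79, 5.22, 0 and 9.11. In L12YT-ECKO it had 9.01, 9.26, 9.41 and 8.72, and each of those 4 values exceeded every WT value. A 0 can be a gene that was not sampled, most of all in L12-ECKO replicate 3, and the limma adjusted p of Sema3b in L12YT-ECKO versus WT was 0.523. Sema3e, a direct ligand of Plxnd1, had WT values of 4.78, 0, 3.08 and 0. The L12-ECKO libraries held 4.97, 2.29, 4.98 and 0, and those of L12YT-ECKO 7.24, 6.84, 0 and 0.856. Above the lowest WT value, each group had 2 libraries. Among them, 3.08 in WT replicate 3 and 4.98 in L12-ECKO replicate 3 equal the lowest value above 0 of those libraries.

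Downstream of plexins, 32 of 36 listed signalling and effector genes were tested. In L12-ECKO versus WT 0 were called higher and 1 lower, with 18 above and 14 below WT and a median of 0.033 against -0.022 for all genes. The calls over all genes tested made up 0.481% in that comparison, with 0.189% lower. Only 2 of these 32 effectors had an unadjusted limma p below 0.05 there, against 12.2% of all genes tested. The gene called was Arhgef12, which encodes LARG, an exchange factor that binds the tail of B-type plexins. Its values were 12.57, 12.07, 12.01 and 11.90 in WT. They were 10.99, 10.71, 11.20 and 10.82 in L12-ECKO, all below WT. They were 11.93, 12.12, 11.55 and 11.71 in L12YT-ECKO, all above L12-ECKO. Arhgef12 fell by 1.21 in L12-ECKO versus WT (SE 0.24, limma adjusted p = 0.0327). It differed by 0.90 in L12YT-ECKO versus L12-ECKO (limma adjusted p = 0.365). The L12-ECKO call was lost without WT replicates 1, 2 and 4 (limma adjusted p = 0.124, 0.0878 and 0.0567) and L12-ECKO replicates 1, 2 and 4 (0.0728, 0.0872 and 0.0591). With the batch covariate the difference was -1.01 (limma adjusted p = 0.317). Within the batch of 7, with 1 L12-ECKO library there, it was -1.15. The call was also lost with the sex covariate (limma adjusted p = 0.141), with a prior neither trended nor robust (0.183) and with only the 2 groups compared (0.0809).

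The effectors with the highest means were the small GTPases Rhoa and Rac1 and the cytoskeletal adaptor Dpysl3. They differed between L12-ECKO and WT by 0.22, 0.016 and 0.36, none called. Limma called 0 of the 32 effectors in the other 2 comparisons, with 0 and 5 at an unadjusted p under 0.05 in L12YT-ECKO versus WT and versus L12-ECKO. Of 12 neuropilins and co-receptors 9 were tested and 0 called in any comparison (3, 1 and 2 at an unadjusted p under 0.05). Of 36 genes of the ephrin, slit and netrin guidance families 21 were tested and 0 called (5, 2 and 6 at an unadjusted p under 0.05). Over all genes tested, 12.2%, 6.24% and 6.08% lay at an unadjusted p under 0.05 in the same order of comparisons.

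For Sema3c and Plxnd1, the genes with the most similar values over the 12 libraries were listed. Likeness was measured as the root mean square difference of log2 values after the WT mean of each gene was subtracted, so a small number is a close match. Nearest to Sema3c were Rasa1 at 0.43, Opa3 at 0.44 and Clic5 at 0.45, against a median of 1.89 over all genes tested. Their differences of L12-ECKO from WT were -1.68 for Rasa1, a Ras GTPase-activating protein gene, -1.83 for Opa3, a mitochondrial protein gene, and -2.03 for Clic5, a chloride channel family member. The choice by likeness fixes that direction, so these are descriptions with no test. Near to Plxnd1 were Fam32a at 0.18 and Rab6a at 0.21, against a median of 1.24. A gene that changes little has many close matches.

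**Figure D4:**
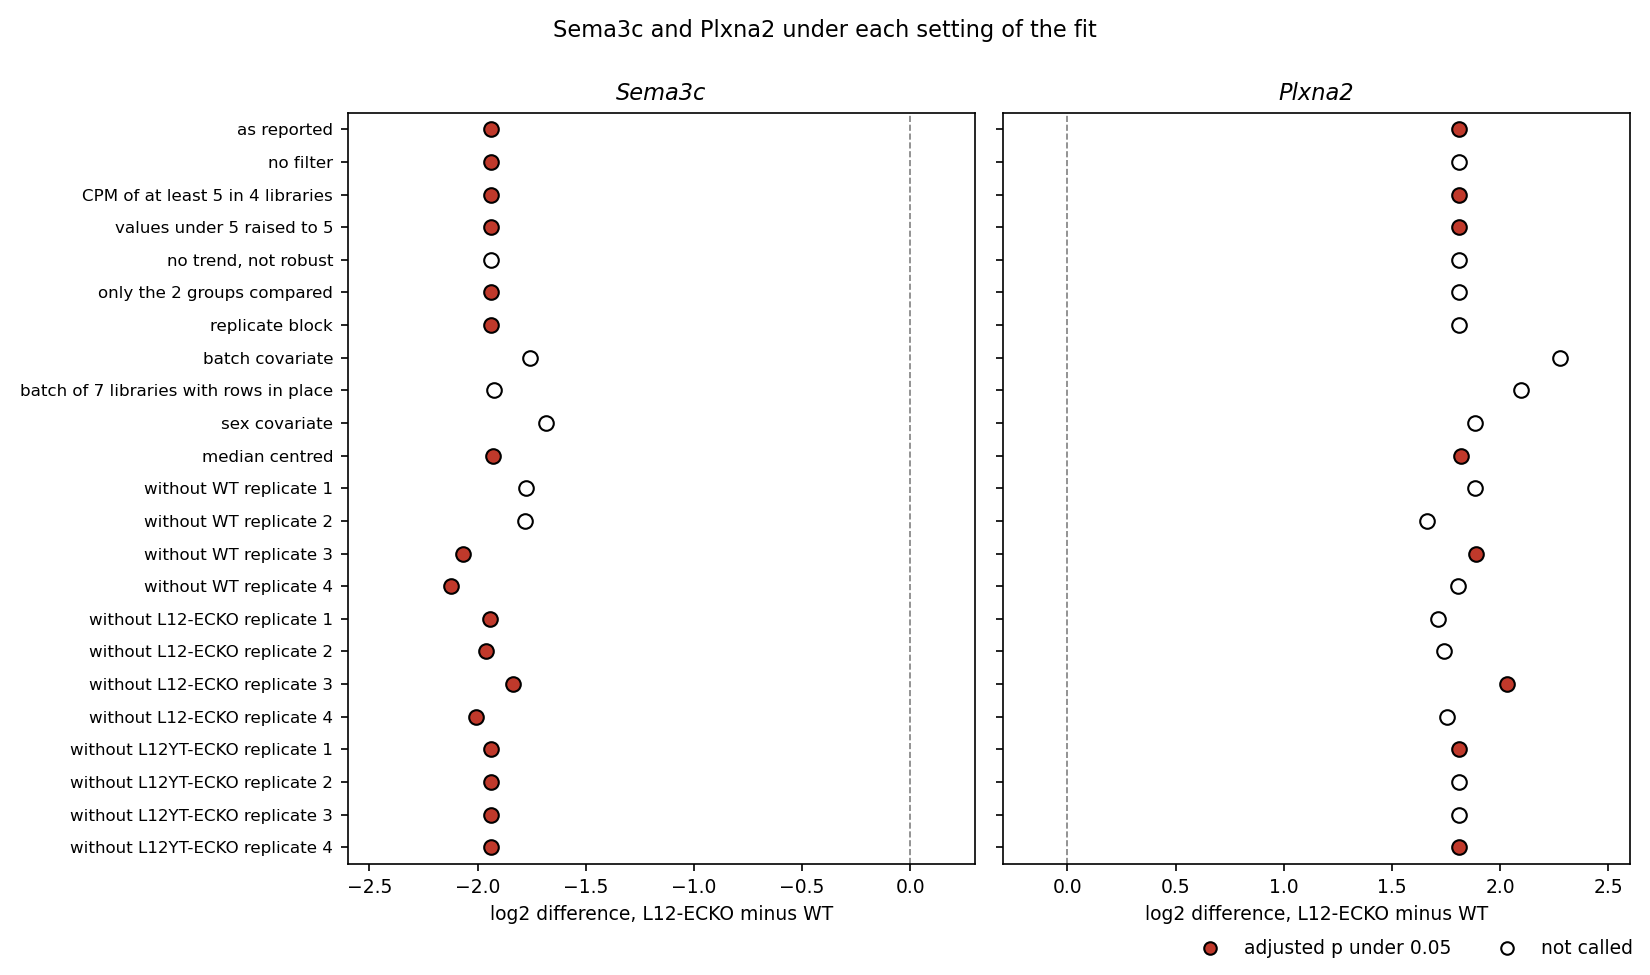
Log2 differences of Sema3c and Plxna2 in L12-ECKO versus WT (horizontal axes) under each setting of the fit that keeps the log2 scale (rows). Filled points have a limma adjusted p under 0.05. Sema3c stays between -2.12 and -1.68 and Plxna2 between 1.66 and 2.28, and open points are the settings in which a call is lost.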

How the data were processed

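Libraries were made with the Lexogen QuantSeq 3-prime kit, per the labels' protocols. Bowtie2, edgeR and the mm10 build are named in the submitters' processing notes; what each did, and in which version, was not given in the sources used here. Deposited tables hold log2 values; judged from the values themselves, the authors had quantile normalized them (sorted values of the top 5000 ranks lay within 0.168 of each other). Depth is unknown. 27 genes under date-like names and 34 displaced or exchanged rows were left out. Limma 3.58.1 (R 4.3.3, statmod 1.5.0) fitted group means over all 12 libraries with a trended, robust variance prior, to 11634 genes with a CPM, back-computed from the log2 values, of at least 1 in at least 4 libraries. Since values were already logged they were used as deposited, as planned for that case, and no count test could be run. P-values were adjusted by Benjamini-Hochberg over all genes tested, and called under 0.05. The fit was tested on simulated data. Coordinates are from GENCODE M21. All members passed the filter, so the planned permutation test for members below it was not needed.

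Named were all members, other tested semaphorins and plexins, both neuropilins, called genes and the 3 highest effectors of the fixed lists, and the 3 genes nearest to Sema3c and to Plxnd1, of which 1 is not reported here. Itgb1, Plxnb3, the named cell type markers and the targeted genes were named in addition, with their values known. Members and lists were chosen with earlier results of these data known. Alternatives changed the scale, filter, prior, libraries, replicate block, batch, sex (read from Xist and Ddx3y) and centring.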

Additional observations from a re-analysis of the deposited data

Results flagged for a closer look

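In 1 of 30 sets of 4 libraries (10 members in 3 groups), a library lay far from the others by Dixon's test. Chance gives about 1 in 20. It was Plxna2 in L12-ECKO replicate 3, at 9.908, whose gap to the next library was 0.869 of the group's range. That library also had the fewest genes above 0, 9850. Without it the Plxna2 difference of L12-ECKO from WT was 2.03 (limma adjusted p = 0.0387). The part of that library's low detection in its Plxna2 value was not tested.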

How the results depend on the processing

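In L12-ECKO versus WT the number of members called went from 2 to 1 (Sema3c in each case) with log2(value + 1), with no filter, with only the 2 groups compared and with the replicate block. It went to 0 with a prior neither trended nor robust, with the batch covariate and with the sex covariate. The cause was not tested. In the batch of 7 libraries (1 of them L12-ECKO) the differences were -1.92 for Sema3c and 2.10 for Plxna2. Leaving out each library gave a number of 0 to 2. In the other 2 comparisons it was 0 under every setting run. Sema3c and Plxna2 kept their sign in L12-ECKO versus WT in all of these fits. Same-numbered libraries had correlations of -0.047 to 0.058 in their deviations over all genes tested. No pairing by replicate number showed in these values, though a weak one could be missed. With the block Plxna2 had a limma adjusted p of 0.0540. Over all genes, calls in L12-ECKO versus WT ran from 7 to 87 against 56.

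Signs changed as follows, none of these differences being called. In L12-ECKO versus WT, Sema3f was 0.10 with the batch covariate and 0.28 in the batch of 7, Sema4c was -0.28 in the batch of 7, and Plxnb1 was -0.37 and -2.06. In L12YT-ECKO versus L12-ECKO, Sema6d was -0.55 in the batch of 7, and Plxnb1 was -0.55 and Nrp1 0.086 in the batch of 5. Leaving out each library, L12YT-ECKO minus WT ran from -0.010 to 0.19 for Plxnd1, -0.062 to 0.51 for Plxna2, -0.12 to 1.40 for Plxnb2 and -0.10 to 0.31 for Nrp2. L12YT-ECKO minus L12-ECKO ran from -0.31 to 1.02 for Plxnb1, -0.54 to 0.099 for Plxnb2 and -0.21 to 0.072 for Nrp1. An edgeR count fit was not run, as the files hold no counts.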
